A study of Mus musculus with 24 samples.

Results

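Adipokines are proteins that fat cells release into the blood, and 7 of their genes were followed here through the conversion of 3T3-L1 cells, a mouse fibroblast line, into adipocytes: *Adipoq*, *Retn*, *Cfd*, *Lep*, *Rbp4*, *Apln* and *Agt*. They were chosen by gene symbol, with earlier results of these data known, out of 26995 symbols in the deposited tables. Each was represented by its 3′UTR entry with the highest mean count, out of 91830 entries in all. The study asked how protein sumoylation shapes transcription during this conversion. Cells received DMSO or 0.5 μM ML-792, a selective inhibitor of the SUMO-activating enzyme SAE1/2, and were harvested at days −2, 1, 3 and 7 around hormonal induction, with 3 biological replicates (A, B and C) in each of the 8 groups. All 24 cultures were of the same line, were labelled with 100 μM 4-thiouridine for 45 min before harvest, and, after induction, had received dexamethasone, 3-isobutyl-1-methylxanthine and insulin until day 3 and insulin afterwards. The study's layout draws ML-792 from day −2 on, and for how long the day −2 cells were exposed before harvest is not given in the sources used here. QuantSeq counts all reads at the 3′ end of polyadenylated RNA (total reads), and SLAMseq counts, in the same libraries, the reads with a T to C conversion, which marks RNA made during the labelling (labelled reads).

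Adiponectin (*Adipoq*) and leptin (*Lep*) are the best known fat hormones, the first raising insulin sensitivity and the second reporting fat stores to the brain. Resistin (*Retn*) opposes insulin in mice, adipsin (*Cfd*, complement factor D) is the protease that starts the alternative complement pathway, and retinol-binding protein 4 (*Rbp4*) carries vitamin A in the blood. Angiotensinogen (*Agt*) is the precursor of the angiotensin peptides, and apelin (*Apln*) is the ligand of the receptor APJ. Most of these genes are switched on late in adipogenesis under the control of PPARγ and C/EBP factors, and leptin is known for its low expression in cultured fat cells compared with fat tissue.

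The libraries held 13554718 to 27013352 total reads and 115709 to 820046 labelled reads. Counts were normalised with edgeR's TMM factors, and 26563 entries passed the filter on low total counts and 10170 that on low labelled counts. All 6 adipocyte markers fixed for a check of the cells (*Fabp4*, *Plin1*, *Lpl*, *Pparg*, *Cebpa*, *Lipe*) rose in DMSO from day −2 to day 7 and 5 of 6 pre-adipocyte markers fell, against 15.5% of all entries higher and 17.1% lower. The leukocyte gene *Ptprc* had no read in any library, and the summed level of the 4 endothelial markers stayed at or under 20.5 normalised reads, that of the 4 macrophage markers at or under 146 and that of the 4 muscle markers at or under 502. The muscle sum was mostly *Des* (desmin), which rose in DMSO from a mean of 25.7 reads at day −2 to 359.7 at day 7 and was lower in ML-792 at day 3 (log2 -1.08, adjusted p = 0.097, edgeR) and day 7 (-1.54, adjusted p = 0.0063, edgeR). Its part in the results was not tested. Of 2 brown fat markers, *Ucp1* had at most 3 reads in a library, and *Cidea* rose in DMSO and was lower in ML-792 at day 7 (log2 -2.08, adjusted p = 0.0012, edgeR). In bulk RNA, fewer cells of a type and less RNA per cell cannot be told apart.

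In mm10 coordinates, the *Adipoq* entry (NM_009605.4) lies on chromosome 16 from 23157595 to 23157968, that of *Cfd* (NM_001291915.1) on chromosome 10 from 79892587 to 79892660 and that of *Agt* (NM_007428.3) on chromosome 8 from 124556587 to 124556929. The *Lep* entry (NM_008493.3) spans chromosome 6 from 29071183 to 29073876, the *Apln* entry (NM_013912.3) chromosome X from 48025146 to 48027707 and the *Rbp4* entry (NM_011255.3) chromosome 19 from 38116620 to 38116871. All lie in the 3′UTR of the last exon. *Retn* has 3 entries, and 97.1% of their reads fell on the one in the distal last exon (NM_001204959.1, chromosome 8, 3659671 to 3659818). A second *Lep* entry overlaps the first and holds the same reads, so that it adds nothing to the gene.

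Short promoter motifs were searched on both strands from 250 bases before to 50 bases after the RefSeq start of each gene (GRCm38.p6, 8 windows for the 7 genes, of which *Rbp4* has 2). They are shown for *Lep*, *Agt* and *Adipoq*, which of the genes called between the treatments at day 3 are those that hold a motif searched, with the motif in capitals, as the letters stand on the strand of the gene, 5′ to 3′, each position counted once. The *Lep* window holds a C/EBP motif (TTGCNNAA) on chromosome 6 in the stretch from 29060158 to 29060181, the *Agt* window a TATA box (TATAAA) on chromosome 8 from 124569723 to 124569744, and the *Adipoq* window holds CCAAT boxes in both orientations, of which the copies on chromosome 16 from 23146494 to 23146514 and from 23146521 to 23146541 are printed.
Lep: ccggacagTTGCGCAAgtggcact
Agt: cccttgagTATAAAtaagcctg
Adipoq, opposite strand: gcccactcATTGGctattggc
Adipoq, gene strand: tgggttggCCAATggtaagct
Of 32851 promoter windows in this table, 10.8% hold TTGCNNAA, 13.6% TATAAA and 37.4% CCAAT. The nuclear receptor half-site AGGTCA, present in 16.3% of all windows, was in 0 of the 8, and neither *Retn*, *Cfd* nor *Apln* held any of the motifs searched, which also included ACGTG (19.6% of all windows). A match is a description of these letters and not of a bound site.

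Over the DMSO time course 6 of the 7 genes passed the filter on total reads, and all 6 were higher at day 7 than at day −2 (adjusted p under 0.01 in edgeR's quasi-likelihood test, where 32.6% of all entries were called and 15.5% were higher). At day 1 only *Apln* and *Agt* were called, in opposite directions (2 of 6, against 13.7% of all entries). At day 3 all but *Apln* were higher than at day −2 (5 of 6, against 30.5% called and 13.4% higher), and from day 3 to day 7 *Adipoq*, *Retn*, *Cfd*, *Apln* and *Agt* rose (5 of 6, against 8.77% called and 5.32% higher). In ML-792 the calls against day −2 were 3 of 6 at day 1 (20.0% of all entries), 6 of 6 at day 3 (34.7%) and 5 of 6 at day 7, all higher (34.8% called and 16.7% higher), and 5 of 6 genes rose between days 3 and 7 (10.9% called and 6.17% higher).

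**Figure D1:**
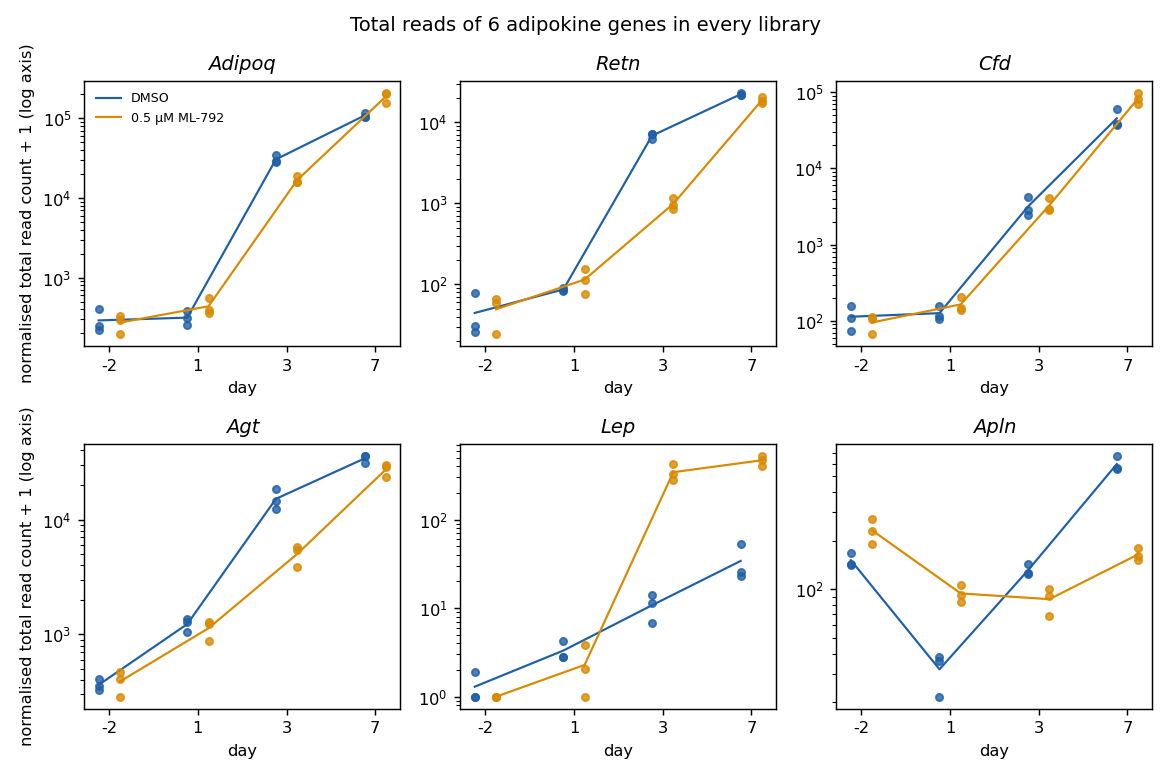
Normalised total read count plus 1 (log axis) of 6 adipokine genes against the day of harvest, in DMSO (blue) and 0.5 μM ML-792 (orange); points are single libraries, 3 per group, and lines join the group means. At day 3 the ML-792 libraries lie below the DMSO libraries for Adipoq, Retn, Agt and Apln and above them for Lep, and at day 7 only Apln was called lower in ML-792.

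At day −2 none of the 6 genes was called between ML-792 and DMSO (0 of 6, against 0% of all entries; 348 entries and, of the 6 genes, *Apln* alone had an unadjusted p under 0.05, and DESeq2 called 0 entries). At day 1 *Apln* alone was called (1 of 6 at an adjusted p under 0.1 and higher, against 6.55% called and 3.05% higher). At day 3 *Adipoq*, *Retn*, *Agt* and *Apln* were lower and *Lep* was higher in ML-792 (5 of 6, against 12.9%). At day 7 *Adipoq*, *Cfd* and *Lep* were higher and *Apln* was lower (4 of 6, against 9.60%). The days and treatments interacted, by an F-test of 3 terms, in 5 of 6 genes (all but *Cfd*, against 9.66% of entries). In the main fit the change from day −2 to day 7 as such differed between treatments for *Apln* alone (1 of 6, against 3.24% called and 1.60% with a lower change in ML-792). Some alternative fits, given below, also called it for *Adipoq*, *Cfd* or *Lep*. Each day's comparison uses its own DMSO libraries, but the time courses share the day −2 libraries of their treatment.

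**Figure D2:**
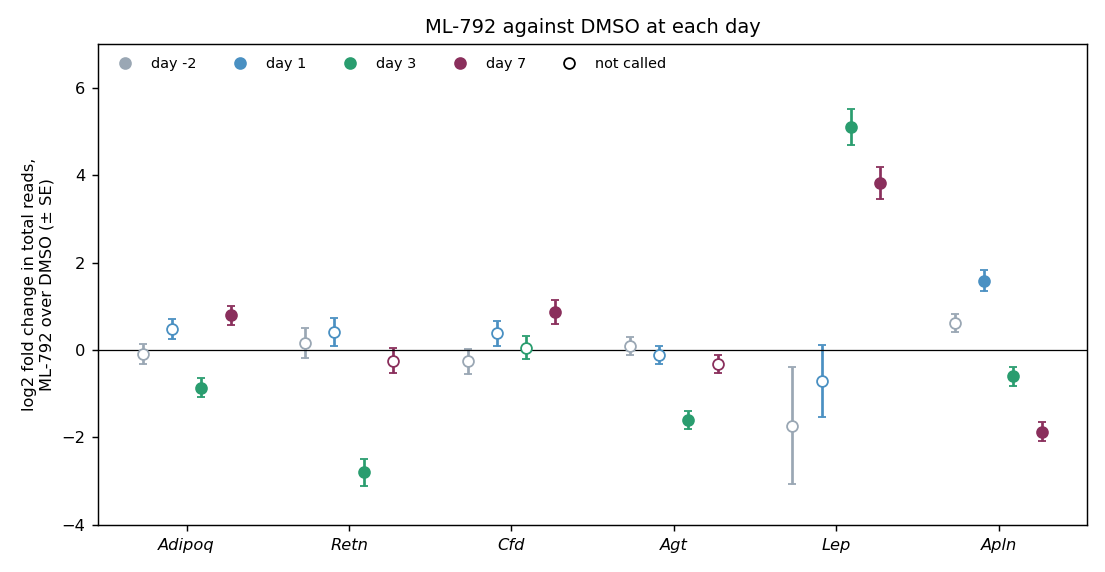
Log2 fold change in total reads of ML-792 over DMSO (y axis, ± SE) for 6 genes at days −2, 1, 3 and 7; filled points passed an adjusted p of 0.1 and open points did not. Lep stands 5.10 above zero at day 3 and 3.81 at day 7, Retn and Agt are below zero at day 3 and near it at day 7, and Apln passes from above zero at day 1 to below it at day 7.

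*Adipoq*, whose product is the most abundant hormone of fat cells, had 245, 404 and 220.2 normalised total reads in the 3 DMSO libraries at day −2 and 314, 377 and 251 at day 1. Counts then stood at 28894, 28315 and 34127 at day 3 and at 115621, 104481 and 104183 at day 7. The day 3 libraries all lay far above those of days −2 and 1, which overlapped. In ML-792 the day 3 libraries held 18789.5, 15766 and 15690.1 reads, all below the lowest DMSO library of that day (log2 fold change -0.86, SE 0.22, adjusted p = 0.012, edgeR). At day 7 they held 206493, 154143 and 200483, all above the highest DMSO library (0.79, SE 0.22, adjusted p = 0.029, edgeR). The day 7 call did not hold without ML-792 replicate A or C or without DMSO replicate B or C, when the adjusted p reached 0.11 at most. Between days 3 and 7 *Adipoq* rose 11.2-fold in ML-792 and 3.55-fold in DMSO.

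*Retn* encodes resistin. It had 24.5, 76.0 and 29.3 normalised reads in DMSO at day −2, and 90.1, 83.8 and 82.5 at day 1. It stood at 6178, 7061 and 7227 at day 3 and at 21849, 22906 and 21774 at day 7, 513-fold above day −2. In ML-792 the day 3 libraries held 1154, 946 and 852 reads, 6.93-fold less than in DMSO with no overlap (log2 fold change -2.79, SE 0.31, adjusted p = 1.0e-06, edgeR). At day 7 the ML-792 libraries had 18449, 17372 and 20428 reads. All 3 were still below the DMSO libraries, yet the difference did not pass the test (-0.24, SE 0.29, adjusted p = 0.75, edgeR, 95% interval -0.81 to 0.33). *Retn* rose 19.0-fold in ML-792 from day 3 to day 7, against 3.25-fold in DMSO. The proximal *Retn* entry that ends earlier on the gene (3657387 to 3658096) had 207.6 ± 47.6 normalised reads in DMSO and 35.5 ± 2.44 in ML-792 at day 3, and 405.6 ± 167 and 319.8 ± 59.6 at day 7 (SD, n = 3). The means of both entries were thus lower in ML-792 at day 3.

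*Agt*, the angiotensinogen gene, was the only gene of the set called higher at day 1 in DMSO. Its DMSO libraries held 357, 326 and 405 normalised reads at day −2 and 1361, 1049 and 1278 at day 1, a 3.39-fold rise (log2 1.76, SE 0.19, adjusted p = 8.1e-06, edgeR). They held 14564, 12237 and 18633 at day 3 and 35429.7, 30812 and 35909 at day 7. In ML-792, days −2 and 1 overlapped with DMSO (1234, 871 and 1288 reads at day 1). At day 3 the ML-792 libraries held 5773, 3825 and 5453 reads, 3.02-fold less than DMSO and without overlap (-1.59, SE 0.21, adjusted p = 7.8e-06, edgeR). At day 7 they held 28521, 23329 and 29998, again below all DMSO libraries, but the difference of -0.32 (SE 0.20) was not called (adjusted p = 0.45, edgeR, 95% interval -0.72 to 0.08).

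*Cfd*, which encodes the complement protease adipsin, followed a later course. It had 108, 157 and 72.8 normalised reads in DMSO at day −2, 117, 156 and 105 at day 1, 2455, 4245 and 2842 at day 3 and 38746, 60575 and 36748 at day 7. Its step from day 3 to day 7 was 14.3-fold (log2 3.83, SE 0.31, adjusted p = 1.0e-06, edgeR). In ML-792 day 3 gave 2971, 4089 and 2823 reads, overlapping with DMSO (difference 0.05, SE 0.27, adjusted p = 0.96, edgeR, 95% interval -0.47 to 0.57). At day 7 the ML-792 libraries held 80624.5, 97206 and 70140.3 reads, all above the DMSO libraries (0.87, SE 0.27, adjusted p = 0.052, edgeR). This call was lost without DMSO replicate A or C or ML-792 replicate B (adjusted p up to 0.21). Replicate B was the highest of its group for *Cfd* in DMSO at days −2, 1, 3 and 7.

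*Lep*, the leptin gene, was barely read in DMSO. Its raw counts were 0, 1 and 0 at day −2, 2, 2 and 4 at day 1, 12, 9 and 5 at day 3, and 22, 21 and 46 at day 7. Over the 3 libraries, day 7 exceeded day −2 by a ratio of 113, with a counting interval from 19.8 to 4529 (exact, 95%) because day −2 holds 1 read. In ML-792 the raw counts were 0, 0 and 0 at day −2 and 1, 0 and 3 at day 1, then 258, 255 and 345 at day 3 and 439, 311 and 347 at day 7. Against a floor of 3 reads over the group, day 3 was thus at least 455-fold above day −2. Normalised, ML-792 held 280.4, 323 and 420.3 reads at day 3 against 13.1, 10.4 and 5.79 in DMSO, a 34.3-fold difference (log2 5.10, SE 0.42, adjusted p = 1.7e-08, edgeR). At day 7 it held 523, 400.1 and 474 against 24.8, 21.9 and 52.5, a 14.1-fold difference (3.81, SE 0.37, adjusted p = 4.0e-07, edgeR). The groups did not overlap on either day. Both calls held under every alternative and with every library left out in turn. Within ML-792, *Lep* did not pass the test between days 3 and 7 (0.45, SE 0.25, adjusted p = 0.25, edgeR).

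*Apln*, the apelin gene, was the only gene of the set called lower at day 1 in DMSO. There it had 142, 141 and 168 normalised reads at day −2 and 34.9, 37.3 and 20.6 at day 1, 4.86-fold less (log2 -2.28, SE 0.25, adjusted p = 7.9e-06, edgeR). It was back at 126, 143 and 123 at day 3 and stood at 554, 669.6 and 561 at day 7. In ML-792 it had 229, 273 and 190.4 reads at day −2, all above the DMSO libraries though not called (0.62, SE 0.21, adjusted p = 1, edgeR). At day 1 the ML-792 libraries held 90.9, 106 and 83.0 reads, 3.01-fold more than DMSO (1.59, SE 0.23, adjusted p = 7.0e-05, edgeR), and at day 3 67.4, 100.1 and 90.2, all below DMSO (-0.60, SE 0.22, adjusted p = 0.089, edgeR). The day 3 call was lost without DMSO replicate A, B or C or ML-792 replicate A or C of that day (adjusted p up to 0.33, edgeR), with a wider filter on low counts (0.16) and when only the 6 libraries of the day were fitted (0.31). At day 7 the ML-792 libraries had 159.7, 179 and 152 reads, 3.64-fold below DMSO (-1.86, SE 0.21, adjusted p = 2.1e-06, edgeR). The change from day −2 to day 7 differed between treatments by -2.48 (SE 0.30, adjusted p = 1.9e-05, edgeR). *Apln* rose 3.95-fold in DMSO and stood at 0.708 times its day −2 level in ML-792 (log2 -0.50, adjusted p = 0.07, edgeR).

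*Rbp4*, the vitamin A carrier, had no read in 20 of the 24 libraries and passed neither filter. DMSO at day 7 had 2, 5 and 0 total reads, and ML-792 at day 1 had 5, 0 and 10. Of the 10 reads 8 were labelled, a share far above that of the library. A count of 0 in a library allows up to 3 reads, so that its expression in this line was near or under the limit of these libraries and was not tested.

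At day 3 the summed level of the 6 pre-adipocyte markers was 11652 to 13868 normalised reads in DMSO and 24481 to 30316 in ML-792, with 4 of 6 higher in ML-792 (*Pdgfra*, *Thy1*, *Ly6a*, *Col1a1*) and 0 lower. Over all entries 6.87% were higher and 5.99% lower on that day. *Col1a1* made up much of this sum, with means of 7243 in DMSO and 17547 in ML-792. The 6 adipocyte markers summed to 325004 to 474027 in DMSO and 387305 to 448792 in ML-792, with 2 of 6 lower (*Lpl* and *Lipe*) and 0 higher. That sum was mostly *Lpl* and *Fabp4*, whose means went in opposite directions. *Lpl* had 226852 in DMSO and 170338 in ML-792, and *Fabp4*, which was not called, 136324 and 214706. At day 7 the pre-adipocyte markers summed to 12794 to 19196 in DMSO and 20135 to 25992 in ML-792, and the adipocyte markers to 492145 to 539578 and 578936 to 692066. In ML-792 3 pre-adipocyte markers were higher and 1 was lower (*Dlk1*, log2 -1.07, adjusted p = 0.011, edgeR). 1 adipocyte marker (*Fabp4*) was higher, and over all entries 5.00% were higher and 4.60% lower. The part of these marker levels in the differences of the adipokine genes was not tested.

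Labelled reads were enough to test 5 of the 7 genes (*Adipoq*, *Retn*, *Cfd*, *Apln* and *Agt*). Over all 10170 entries tested the median labelled log2 change from day −2 to day 7 in DMSO was -1.53 when labelled reads were scaled by the total reads, and -0.13 when they were scaled by the labelled reads themselves. In DMSO *Adipoq*, *Retn* and *Agt* were higher at day 3 (3 of 5, against 1.92% of entries higher and 35.7% called in either direction) and these and *Cfd* at day 7 (4 of 5, against 1.81% higher and 31.6% called). Over the DMSO libraries of day −2 *Retn* had 0 labelled reads and *Cfd* had 1, against 82 and 149 at day 7. The labelled shares of both genes at day 7 lay close to background, as given below. *Agt* was the only gene of the 5 called at day 1 (1 of 5, against 0.590% higher and 20.4% called), with 4, 1 and 4 labelled reads at day −2 and 7, 8 and 27 at day 1. Without DMSO day −2 replicate B or DMSO day 1 replicate C it was not called. *Apln* went from 7, 0 and 13 labelled reads at day −2 to 0 in each DMSO library at day 1. This was at least 6.53-fold less, but was not called in the main fit (adjusted p = 0.012, edgeR). *Apln* was called there with all 24 libraries fitted together (adjusted p = 0.0069, edgeR) and without DMSO day −2 replicate B (adjusted p = 0.0059, edgeR). Between days 3 and 7 *Cfd* alone was called, and higher (1 of 5, against 0.177% higher and 0.246% called). It went from 1, 3 and 3 to 33, 57 and 59 labelled reads (log2 4.30, SE 0.77, adjusted p = 6.2e-04, edgeR). This call was lost without DMSO day 3 replicate A or DMSO day 7 replicate B or C (adjusted p up to 0.014) and when background was taken off (adjusted p = 0.19). *Adipoq* went from 156, 148 and 143 to 386, 409 and 388 labelled reads in that step, without overlap. It was not called in the main fit (log2 1.36, SE 0.35, adjusted p = 0.042, edgeR). It was called by DESeq2 (adjusted p = 2.1e-04) and with the replicate letter as a block (adjusted p = 0.0026, edgeR).

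In ML-792 *Apln* fell at day 1 (1 of 5, against 27.1% lower and 27.7% called), from 10, 22 and 27 labelled reads to 0 in all 3 libraries, at least 14.0-fold less. *Adipoq* and *Agt* were higher at day 3 (2 of 5, against 1.98% higher and 36.1% called), and all 5 were called at day 7 (against 40.7%), *Apln* being lower like 38.9% of entries and the others higher like 1.80%. Scaled by the labelled reads instead, the calls of *Apln* at days 1 and 7 in ML-792 were lost (adjusted p = 0.013 and 0.021, edgeR), while *Agt* at day 1 in ML-792 and *Cfd* at day 3 in DMSO were called. From day 3 to day 7 *Adipoq*, *Retn*, *Cfd* and *Agt* rose (4 of 5, against 0.216% higher and 0.492% called). *Adipoq* went from 89, 69 and 59 to 574, 439 and 442 labelled reads (log2 2.85, SE 0.33, adjusted p = 9.4e-09, edgeR), and *Agt* from 55, 25 and 35 to 154, 76 and 168 (1.92, SE 0.40, adjusted p = 0.0026, edgeR). The calls of *Retn* and *Agt* in that step did not hold when single libraries of those days were left out: *Retn* was lost in 4 such fits (adjusted p up to 0.055) and *Agt* in 4 (up to 0.051). Both were also lost when background was taken off (adjusted p = 0.0134 for *Retn* and 0.0104 for *Agt*, edgeR).

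Between the treatments no gene of the 5 was called in labelled reads at day −2 (against 0% of all entries), at day 1 (0.924%) or at day 7 (0.905%), where 0, 1 and 1 of the 5 had an unadjusted p under 0.05 and DESeq2 called 0 of the 5 on each of these days. At day 3 *Retn* and *Agt* were lower in ML-792 (2 of 5, against 0.580% lower and 0.954% called). *Retn* had 13, 4 and 18 labelled reads in DMSO and 0, 0 and 1 in ML-792, a ratio of 33.5 with a counting interval from 5.64 to 1362 (exact, 95%), at an adjusted p of 0.038 (edgeR). *Agt* had 143, 99 and 179 labelled reads in DMSO and 55, 25 and 35 in ML-792, a 3.55-fold difference with no overlap (log2 -1.83, SE 0.42, adjusted p = 0.020, edgeR). Each was also lower in total reads on that day, by 6.93 and 3.02 times. Both labelled calls were lost when single libraries were left out. *Retn* lost its call without ML-792 replicate A or B or DMSO replicate C (adjusted p up to 0.23), and *Agt* without ML-792 replicate B or DMSO replicate C (up to 0.12), with differences of -1.66 and -1.60. *Adipoq* had 156, 148 and 143 labelled reads in DMSO and 89, 69 and 59 in ML-792 at day 3, without overlap but not called (-0.99, SE 0.32, adjusted p = 0.19, edgeR; DESeq2 gave 0.015).

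*Lep* had too few labelled reads for the fit. At day 3 they numbered 4, 0 and 0 in DMSO and 4, 6 and 9 in ML-792, and at day 7 2, 1 and 2 in DMSO and 7, 7 and 3 in ML-792. Pooled over the ML-792 libraries, 19 of 858 *Lep* reads were labelled at day 3, a share of 2.21% (exact binomial 95% interval 1.34 to 3.44, counting error only), against 0.958% ± 0.0369 (SD, n = 3) for all reads of those libraries. In DMSO the pooled share was 15.4% (4.36 to 34.9) at day 3, from 4 of 26 reads, all 4 in replicate A. At day 7 it was 5.62% (1.85 to 12.6) in DMSO, from 5 of 89 reads, and 1.55% (0.905 to 2.47) in ML-792. The part of T content in these shares was not tested. For *Apln* at day 7, 7, 6 and 10 reads were labelled in DMSO (23 of 1624) and 0 of 384 in ML-792, which allows a share of up to 0.781%. The labelled level was thus at least 6.62-fold lower in ML-792 against the floor of 3 reads over the group, at an adjusted p of 0.12 (edgeR) that became 0.049 when the 6 libraries of the day were fitted alone.

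The labelled share of a gene's reads depends on how new its RNA is and on how many T bases its counted stretch offers. *Adipoq* had 0.591, 0.606 and 0.485% labelled reads in the DMSO libraries at day 3 and 0.377, 0.408 and 0.425% at day 7, with no overlap between the days (exact permutation p = 0.1, adjusted p = 0.5 over 20 share comparisons). *Agt* went the same way, from 1.07, 0.938 and 1.11% to 0.774, 0.508 and 0.862% (exact permutation p = 0.1, adjusted p = 0.5). With 3 libraries against 3 the test cannot go below 0.1, so that none of the 20 comparisons could pass. All entries together stood at 1.03% on both days in DMSO (SD 0.115 and 0.0869, n = 3).

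At day 7 the share of *Adipoq* in ML-792 was 0.331, 0.366 and 0.301%, below all 3 DMSO libraries (exact permutation p = 0.1, adjusted p = 0.5). The share of all reads was lower in ML-792 as well (0.837% ± 0.0310 against 1.03% ± 0.0869, SD, n = 3). Divided by the share of its library, *Adipoq* had 0.399 ± 0.0527 in ML-792 and 0.395 ± 0.0452 in DMSO (SD, n = 3), so that the difference was not seen on this scale. *Agt* had overlapping shares in ML-792 and DMSO at days 3 and 7.

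The shares of *Retn* and *Cfd* lay close to the background of the libraries. At day 7 in DMSO *Retn* had 0.124, 0.159 and 0.121% labelled reads and *Cfd* 0.0961, 0.0981 and 0.183%, between the 0.97th and the 5.72nd percentile of the 3721 to 4023 entries with at least 1000 reads. The 1st percentile of those entries, taken as background, was 0.0535 to 0.0974% in these libraries. The counted stretch of *Cfd* has 10 T bases in 74 and that of *Retn* 28 in 148, or 13.5% and 18.9%, the 1.18th and 4.88th percentile of entries with a mean of at least 10 reads. *Adipoq* has 114 T bases in 374 (30.5%) and *Agt* 81 in 343 (23.6%). How far T content sets the shares was not tested, and the shares of these 4 genes are therefore not ranked.

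**Figure D3:**
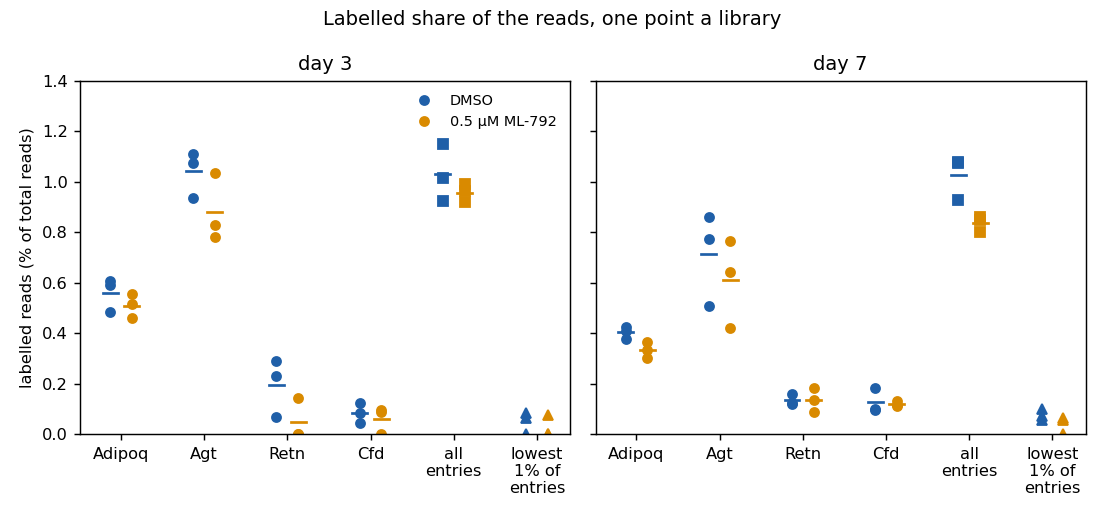
Labelled reads as a percent of total reads (y axis) at day 3 (left) and day 7 (right) for Adipoq, Agt, Retn and Cfd, for all entries together (squares) and at the 1st percentile of entries with at least 1000 reads (triangles), in DMSO (blue) and ML-792 (orange); points are single libraries and short lines their means. Adipoq and Agt are lower at day 7 than at day 3 in DMSO, and Retn and Cfd lie close to the triangles.

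Other genes of the pathways were taken from lists, and their counts stand beside the shares of all entries. Of all entries 15.5% rose and 17.1% fell in DMSO from day −2 to day 7. Between the treatments 6.87% were higher and 5.99% lower in ML-792 at day 3, and 5.00% and 4.60% at day 7. Of 12 transcriptional regulators of adipocyte genes, all tested, 7 rose and 1 fell in DMSO from day −2 to day 7 (median log2 change 1.56, against -0.06 for all entries). *Nr1h3* (LXRα) rose by 5.15, *Cebpa* by 4.69 and *Pparg* by 3.73, and *Klf15* went from a mean of 1.44 to 987 normalised reads. At day 3 *Cebpd*, *Rxra*, *Nr1h3* and *Stat5a* were lower and *Ppargc1a* was higher in ML-792 (median -0.06, against 0.02 for all entries), and at day 7 *Cebpd*, *Srebf1* and *Ppargc1a* were higher and 0 lower (median 0.11). *Pparg* and *Cebpa* were not called at day 3 (-0.50 and -0.36, adjusted p = 0.64 and 0.59, edgeR) or day 7 (0.51 and -0.18, adjusted p = 0.64 and 0.84, edgeR).

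Of 8 genes for the folding and secretion of adiponectin, 4 rose (*Ero1l*, *Gstk1*, *Plod1*, *Hspa5*) and 0 fell over the DMSO course (median 0.74). In ML-792, *Ero1l* was lower at day 3, and *Ero1l*, *Plod1* and *Hspa5* were lower at day 7 with 0 higher (median -0.45). *Ero1l*, an oxidase of the endoplasmic reticulum that promotes the release of adiponectin, had 10203 normalised reads in DMSO and 1237 in ML-792 at day 7 (means of 3; log2 -3.04, adjusted p = 2.8e-09, edgeR). The chaperone gene *Hspa5* and the lysyl hydroxylase gene *Plod1* differed by -0.76 and -0.73. *Adipoq* itself was higher in total reads in the same ML-792 libraries.

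Among 13 receptors of these proteins or of complement fragments 7 were tested, of which *Adipor2* rose and *Cdh13*, *Cap1* and *C3ar1* fell in DMSO (median 0.36). *C3ar1*, with at most 24 reads in a library, encodes a receptor of a complement fragment and not of one of the 7 proteins. *Adipor2*, a receptor of adiponectin, rose by 2.65 and was 0.56 higher in ML-792 at day 7, and *Cdh13* (T-cadherin), which binds adiponectin, fell by 3.10 and was higher in ML-792 by 2.08 at day 3 and 1.66 at day 7. The receptors of leptin, apelin and angiotensin *Lepr*, *Aplnr* and *Agtr1a* did not pass the filter and had at most 14, 4 and 3 reads in a library. *Agtr2*, the other main angiotensin receptor, was tested and reached 254 reads in a library, with a mean of 206 normalised reads in DMSO and 33.5 in ML-792 at day 1. It was not called in DMSO from day −2 to day 7 or between treatments at days 3 and 7. Of 14 complement genes around adipsin 11 were tested, of which *C3* (by 5.36) and *C4b* rose and *C1s1*, *C1ra*, *Masp1* and *Serping1* fell (median -0.40). At day 3 *C1s1*, *Masp1* and *Cd59a* were higher and *C3* was lower in ML-792 (median 0.60), and at day 7 *C1s1*, *C1ra*, *Masp1* and *Cd59a* were higher (median 0.65).

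Of 14 genes that process angiotensin and apelin 7 were tested, of which *Cma1*, with at most 31 reads in a library, rose and *Atp6ap2* fell in DMSO (median 0.02). At day 3 *Cma1* was higher and *Ren1* lower in ML-792 (median -0.07), and at day 7 *Lnpep* was higher (median -0.10). *Ren1*, whose product renin cleaves angiotensinogen, had 1316 normalised reads in DMSO and 105 in ML-792 at day 3 (-3.64, adjusted p = 3.7e-06, edgeR), the day on which *Agt* was lower too. Among 13 genes of vitamin A handling 10 were tested. *Dgat1*, *Retsat* and *Aldh1a1* rose in DMSO, and *Rdh10*, *Aldh1a3*, *Crabp1* and *Cyp26b1* were among those that fell (median -0.63), and *Aldh1a1* and *Cyp26b1* were higher and *Dgat1* lower in ML-792 at day 3 (median 0.84).

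Of 30 other secreted factors 21 were tested, of which 9 rose and 9 fell in DMSO (median -0.58). In ML-792 5 were higher and 4 lower at day 3 (median -0.04), and 3 were higher and 7 lower at day 7 (median -0.17). *Retnla*, a relative of *Retn*, had 3029 normalised reads in DMSO and 353 in ML-792 at day 3 (-3.10, adjusted p = 4.0e-08, edgeR) and 571 and 29.8 at day 7 (-4.28, adjusted p = 6.1e-09, edgeR). *Sfrp5*, a secreted Wnt inhibitor, went the other way, with 59.6 and 145 reads at day 3 (1.28, adjusted p = 0.024, edgeR) and 150.5 and 421 at day 7 (1.48, adjusted p = 0.0088, edgeR).

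Genes whose log2 levels ran close to each adipokine gene over the 24 libraries were found by Pearson's correlation across 13325 other genes, as a description, since all of them share the same libraries and days. The 3 closest to *Adipoq* included *Adig* (r = 0.991), an adipocyte gene. The closest were *Slc2a4*, which encodes the insulin-dependent glucose transporter GLUT4, for *Retn* (0.984), *Pnpla3* for *Cfd* (0.996) and *Scd2* for *Agt* (0.984). *Lep* had *B430212C06Rik* (0.963) and *Mgst1* (0.959) closest, of which *Mgst1* stood at 5332 and 7937 normalised reads in DMSO at days 3 and 7 and at 11624 and 20500.5 in ML-792. *Apln* was closest to *Tenm4* (0.911).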

How the data were processed

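The authors mapped reads of the 3′ mRNA libraries to mm10 with SlamDunk, counted reads with at least 1 T to C conversion as labelled, and deposited raw total and labelled counts per RefSeq 3′UTR entry, with no normalization. The tables' entry lengths and T contents were used as deposited. Samples were grouped by title, and 6 columns per table that match no sample were left out. The genes and lists were chosen with earlier results of these data known. Counts were analysed with edgeR 4.0.16 in R 4.3.3 (filterByExpr, minimum count 10, total 15; TMM over 24 libraries; robust quasi-likelihood fits over 12 libraries of a treatment, or over all 24 for ML-792 against DMSO), with labelled counts on the total-read factors and Benjamini-Hochberg adjustment over all entries (0.01 over time, 0.1 between treatments). The 95% intervals are the estimate ± 1.96 SE. Shares needed 100 total reads in each library and were set against each other in exact permutation tests (two-sided). Intervals and floors cover counting error only. Named genes are the 7 members, at most 4 per list with the largest change in DMSO, and the 3 most correlated per member (other genes were named after their values were seen). Of these, 2 genes are not reported here. Figures used matplotlib 3.10.9. The fits were tested on simulated data, where 50 entries were changed by each fold and all others had the same level in every group. In the real data far more entries were called, so that these rates need not hold there. At day 3, ML-792 against DMSO, 92 to 94% of entries with 4-fold and 44 to 60% with 2-fold changes in total counts were recovered, and 66 to 78% and 8 to 10% in labelled counts, where 10.0% of calls were false. For DMSO day 7 against day −2 these were 64 to 74% and 8 to 16% in total counts, and 28 to 60% and 2 to 4% in labelled counts. False calls were 6.45% of calls in total counts for ML-792 against DMSO at day 3. For DMSO day 7 against day −2 they were 1.22% in total counts and 0% in labelled counts.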

Additional observations from a re-analysis of the deposited data

Results flagged for a closer look

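The course over the days differed between ML-792 and DMSO in total reads for 5 genes, by edgeR's F-test of 3 interaction terms over all 24 libraries. The adjusted p was 0.0047 for *Adipoq*, 6.4e-05 for *Retn*, 0.0014 for *Lep*, 3.5e-07 for *Apln* and 0.0013 for *Agt*. *Retn* and *Agt* were lower in ML-792 in 3 of 3 libraries at day 3, by -2.79 and -1.59 on the log2 scale, and *Lep* was higher in 3 of 3 by 5.10. For *Apln* the change from day −2 to day 7 also differed between treatments as such, by -2.48 (adjusted p = 1.9e-05, edgeR), and the 3 ML-792 libraries were above DMSO at day 1 and below it at day 7.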

How the results depend on the processing

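The alternatives were DESeq2 1.42.0, a filter of 10 reads over the libraries fitted, 1 entry a gene, the replicate letter as a block, another set of libraries in the fit, labelled reads scaled by the labelled reads, background taken off, and each library left out in turn. No called fold change of a member changed sign under any of them. In labelled reads, the calls between treatments numbered 2, and 4 with the replicate block, which added *Adipoq* at day 3 (adjusted p = 0.043, edgeR) and *Apln* at day 7 (0.078). With single libraries left out they ranged from 0 to 2, and those between treatments in total reads from 8 to 10 (10 with all). The ranges were 18 to 19 calls for total reads in DMSO, 17 to 18 in ML-792 (19 with all), 8 to 9 and 10 to 12 for labelled reads in DMSO and ML-792, and 6 to 7 for the differences between the courses. The change from day −2 to day 7 in total reads also differed between treatments for *Lep* with DESeq2 (log2 5.01, adjusted p = 0.079). For *Cfd* it did so without DMSO day 7 replicate B or DMSO day −2 replicate C (adjusted p = 0.094 and 0.074, edgeR). In total reads the block called *Agt* at day 7 (-0.33, adjusted p = 0.046, edgeR) and the interaction for *Cfd* (adjusted p = 0.018, edgeR). The block also called the difference in that change for *Cfd* (1.07, adjusted p = 0.014, edgeR) and *Adipoq* (0.88, adjusted p = 0.095, edgeR). Over all entries it raised the calls by over 1.5 times in many comparisons, as between treatments in total reads from 1741, 3415 and 2550 to 3594, 5464 and 4841 at days 1, 3 and 7, from 2567 to 5568 for the interaction, from 860 to 2457 for the difference in the day 7 change, and from 3642 to 5628 (DMSO, day 1), 5305 to 9758 (ML-792, day 1), 2330 to 3969 (DMSO, day 3 to 7) and 2890 to 6680 (ML-792, day 3 to 7) over time. For labelled reads these were 94, 97 and 92 to 258, 177 and 230 between treatments, and 25 to 64 and 50 to 151 from day 3 to day 7. DESeq2 gave 3562 and 4455 for the day 3 to 7 steps in total reads, 1358 for the difference in change, 70 and 86 for the labelled steps and 237, 181 and 206 between treatments in labelled reads. After group means were taken off, pairs of libraries with one letter correlated at 0.191 on average, pairs with other letters at -0.094, and 68 of 84 same-letter pairs exceeded 0.1. The letters were taken as a pairing only if all pairs did, so that a shared replicate effect, though partly seen, was not part of the main results. *Retn* at day 1 in DMSO was called by DESeq2 and without DMSO day −2 replicate B (log2 1.67), and *Retn* at day 1 in ML-792 was lost with the block and in 4 fits that left out a library. *Apln* from day 3 to day 7 in ML-792 was lost with the wider filter and with any library of those days left out, and all 24 libraries fitted together called *Lep* from day 3 to day 7 in DMSO (adjusted p = 0.0055, edgeR). The share of *Adipoq* at day 7, lower in ML-792 by -0.0705 percentage points, became 0.00381 higher as a ratio to the share of the library. The cause of these changes was not tested. Under 10 labelled reads a library, as for *Lep*, most *Apln* groups and *Retn* at day 3 in ML-792, depth sets the limit.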
